A study of Mus musculus with 8 samples.

Results

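Phagocytes from the brains of B cell-deficient mice carrying a glioma were compared with and without blockade of CTLA-4. The comparison takes 4 of the 8 libraries of the series: 2 titled as phagocytes from muMT mice given anti-CTLA-4 and 2 from muMT mice given isotype IgG, both groups taken by their titles. The other 4 libraries are the same pair of treatments in wild-type (WT) mice and are used where the antibody effect is compared between hosts. All mice were on the C57BL/6 background, all carried intracranial GL261 tumour cells that express mCherry and EGFP, and in every group live cells positive for both mCherry and CD45.2 were sorted on day 23 after implantation. GL261 is a mouse glioma cell line, so the sort took leukocytes that carried the tumour's fluorescent protein. In muMT mice a germ-line disruption removes the membrane form of the IgM heavy chain, which blocks B cell development throughout the body and not only in the tumour. The labels give neither the age nor the sex of the mice and do not say if different mice or the same pooled material gave the 2 libraries of a group. The p-values are therefore set against variation among libraries, which may be technical.

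CTLA-4 is an inhibitory receptor of T cells that competes with CD28 for the B7 ligands on antigen-presenting cells. Blocking it acts on T cells, whose cytokines act on macrophages. Interferon-gamma turns on GTPases and antigen processing genes in macrophages. Interleukin-4 and interleukin-13 turn on arginase, chitinase-like proteins and certain lectins and chemokines through STAT6. In a glioma the phagocytes are a mixture of resident microglia and cells derived from blood monocytes.

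Promoters of 4 genes show the kinds of sequence that accompany the gene groups described here. Each is the 250 bases before the gene's start as listed by RefSeq on GRCm38.p6, an older mouse build than the mm39 to which the reads were aligned, written 5′ to 3′ on the gene's strand with the match in capitals. The gene shown is the member of its group with the smallest p whose promoter holds the motif. Gbp2, an interferon-induced guanylate-binding protein, holds the interferon-stimulated response element GAAANNGAAA on the reverse strand (chr3:142620413-142620662, + strand). Pdcd1lg2, which encodes the PD-1 ligand PD-L2, holds the palindromic STAT6-type site TTCNNNNGAA (chr19:29410669-29410918, + strand). Psmd2, a subunit of the proteasome's regulatory particle, holds the ETS factor site CCGGAAG on the reverse strand (chr16:20651402-20651651, + strand). Mcm5, a subunit of the replicative helicase, holds the E2F-type site TTNNGCGC on both strands (chr8:75109259-75109508, + strand).
Gbp2: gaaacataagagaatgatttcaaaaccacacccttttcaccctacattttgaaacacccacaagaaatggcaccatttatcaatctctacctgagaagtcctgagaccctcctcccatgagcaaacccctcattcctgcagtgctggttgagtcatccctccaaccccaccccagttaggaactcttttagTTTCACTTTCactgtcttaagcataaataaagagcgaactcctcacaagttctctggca
Pdcd1lg2: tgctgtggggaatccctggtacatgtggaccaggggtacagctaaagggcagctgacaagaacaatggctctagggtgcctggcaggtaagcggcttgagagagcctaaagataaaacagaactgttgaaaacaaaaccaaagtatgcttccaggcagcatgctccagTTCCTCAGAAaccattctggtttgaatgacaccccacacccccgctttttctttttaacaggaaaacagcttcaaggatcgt
Psmd2: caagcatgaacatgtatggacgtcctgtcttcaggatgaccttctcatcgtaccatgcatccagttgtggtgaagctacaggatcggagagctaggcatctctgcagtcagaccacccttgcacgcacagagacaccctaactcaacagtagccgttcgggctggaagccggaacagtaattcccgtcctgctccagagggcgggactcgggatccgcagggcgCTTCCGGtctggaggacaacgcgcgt
Mcm5: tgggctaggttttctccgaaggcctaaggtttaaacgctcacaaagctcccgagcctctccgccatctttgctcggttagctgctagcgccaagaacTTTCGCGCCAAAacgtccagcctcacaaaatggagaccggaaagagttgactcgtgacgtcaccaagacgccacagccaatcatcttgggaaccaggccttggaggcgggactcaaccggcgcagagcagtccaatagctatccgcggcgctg

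Both strands were searched in the RefSeq windows, which run from 250 bases before to 50 after a start. The response element lay in 10 of the 12 promoters listed for guanylate-binding proteins and immunity-related GTPases and in 3.44% of all 32851 promoters. The STAT6-type site lay in 7 of the 28 promoters that 20 interleukin-4 responsive genes have and in 6.95% of all. The ETS site lay in 37.9% of proteasome promoters, 34.7% of mitochondrial ribosome promoters and 8.86% of all. The E2F-type site lay in 36.4% of replication promoters and 6.65% of all. Among promoters of tested genes alone the shares were 3.21%, 5.77%, 15.6% and 10.4% for the 4 motifs in turn. Across the comparison as a whole the ETS site lay in 20.3% of the promoters of genes called higher, 8.23% of those called lower and 15.6% of those of all tested genes, but in 5.28% of those of genes higher by at least 2-fold. A match is a run of letters and no evidence that a factor binds there. These 4 were chosen after seeing the shares of 14 motifs, the others including the E-box CACGTG, the AP-1 site TGANTCA, the CCAAT box, the GC box GGGCGG, the cyclic AMP response element TGACGTCA, the sterol response half-site CACCCCAC, the NRF1 site GCGCNNGCGC, the TATA box TATAAA and the glucocorticoid half-site AGAACA. The E2F-type letters can overlap the NRF1 site.

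Sequencing depth was even. Reads in genes came to 30516495 and 29466171 in the isotype libraries and 31289104 and 30354167 in the anti-CTLA-4 libraries, and the series ran from 24784639 to 31289104. Levels are given as CPM, a gene's count scaled to the library's total, and log2 CPM correlated at 0.992 or more within a muMT group and at 0.979 or less between them. The share of aligned reads in no gene was 20.41% and 20.77% with isotype antibody and 18.59% and 18.68% with anti-CTLA-4. The labelled cell type was checked on 12 genes of phagocytes in general, of which 4 were higher and 3 lower. Lyz2, lysozyme, stood at 5939 and 5703 CPM with isotype antibody and 8632 and 8498 CPM with anti-CTLA-4, Csf1r, the receptor for colony-stimulating factor 1, at 1853 and 1936 and 1688 and 1665 CPM, and Ptprc, which encodes CD45, at 1128 and 1002 and 995 and 986 CPM, so all were abundant in each library.

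With anti-CTLA-4 the muMT phagocytes carried more RNA of interleukin-4 responsive genes, of monocyte-derived macrophage genes and of a wide range of genes for making nucleotides, proteins and mitochondria. They carried less RNA of microglial, glucocorticoid-responsive and sterol efflux genes, and of fibroblast and mast cell markers. Most called genes of the TGF-beta pathway were lower, but its summed level was not. Of 16608 genes tested with edgeR's quasi-likelihood test, 3678 were called higher (22.1%) and 3385 lower (20.4%) at a Benjamini-Hochberg adjusted p under 0.05. Most higher calls were small: 76.8% lay under 1.5-fold and the median was 0.38 on the log2 scale. The lower calls had a median of -0.59, and 963 reached 2-fold against 333 of the higher calls. Of the genes lower by at least 2-fold, 435 lay under 1 CPM on average, as did 118 of those higher by that much. Above 100 CPM, 29 genes were higher and 12 lower by at least 2-fold. The median of all tested genes was -0.00, so lists are read against 0. The 2 libraries of each group did not overlap in 99.9% of the calls in each direction. The same held for 68.5% of all tested genes, so a lack of overlap adds little to a call.

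**Figure D1:**
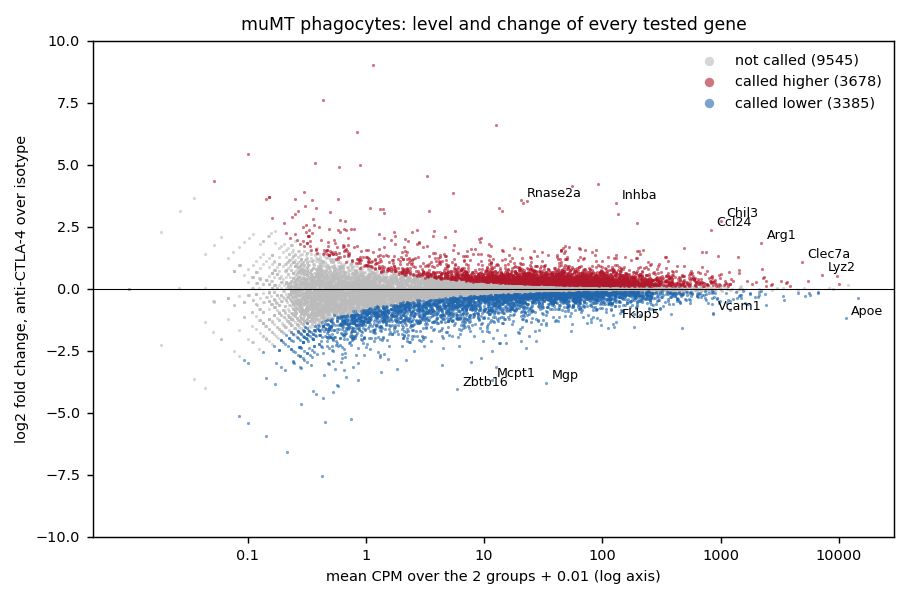
Each point is one of the 16608 tested genes, with its mean CPM over the muMT groups on a log axis and its log2 fold change, anti-CTLA-4 over isotype, on the other. Red points were called higher (3678) and blue points lower (3385) at an adjusted p under 0.05, and the wide blue spread at low CPM shows the many large falls of scarce transcripts.

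The 84 gene lists, written from textbook knowledge, hold 2267 distinct tested genes, and 71 of the lists are of functions or gene classes rather than markers of other cell types. The share of members called higher was above that of all tested genes in 58 of these 71 lists, and the share called lower in 32. The lists were chosen with earlier results of these data known, so these counts are no independent support. Genes called higher had a median of 38.7 CPM, those called lower 12.8 and all tested genes 11.4. The part of level in these shares was not tested. The lists that follow are described by counts and medians beside those of all tested genes, and no list test was run.

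**Figure D2:**
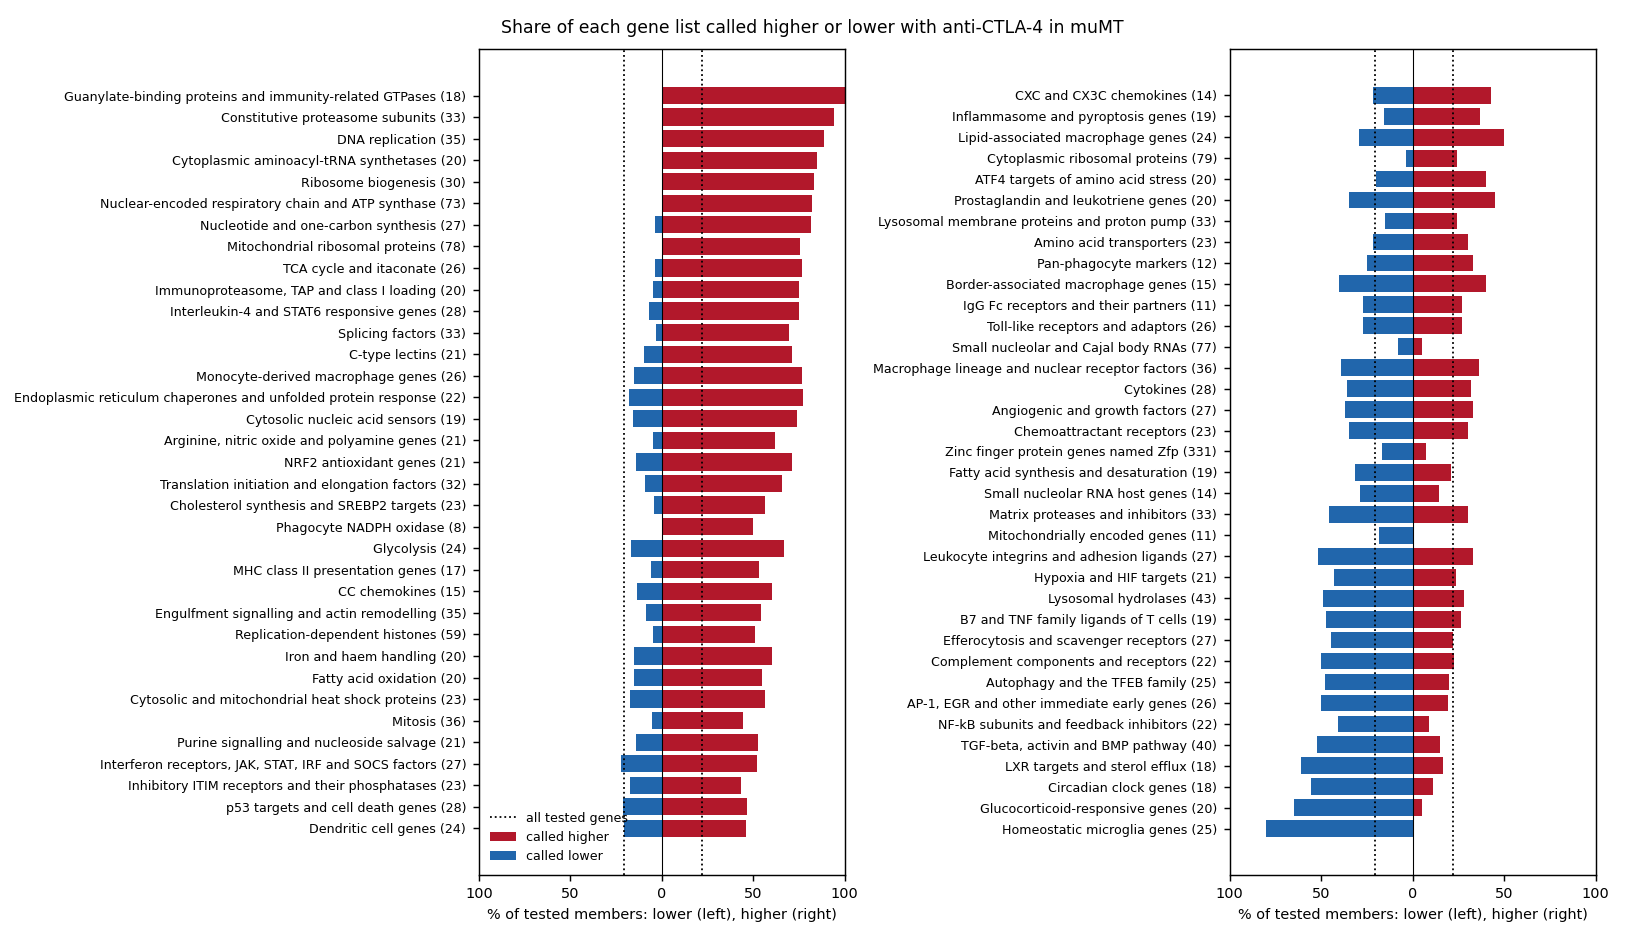
Bars give the percentage of tested members of each list (number in brackets) that were called higher (red, right) or lower (blue, left) with anti-CTLA-4 in muMT. Dotted lines mark the shares of all tested genes, 22.1% higher and 20.4% lower, lists of other cell types or with under 8 tested members are left out, and lists are ordered by the difference of their shares, from the GTPases of the interferon response at one end to homeostatic microglia genes at the other.

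The identity genes moved apart. Of 25 homeostatic microglia genes, 20 were lower and 0 higher (median -0.47). Tmem119, a membrane protein that marks microglia, stood at 136 and 146 CPM with isotype antibody and 71.2 and 73.5 CPM with anti-CTLA-4, with no overlap between the groups (log2 fold change -0.96 ± 0.05, adjusted p = 4.54e-15). Cx3cr1, the fractalkine receptor, stood at 317 and 314 CPM with isotype antibody and 184 and 187 CPM with anti-CTLA-4 (-0.76 ± 0.04). P2ry12, the ADP receptor that guides microglial processes, stood at 154 and 138 CPM with isotype antibody and 94.8 and 90.1 CPM with anti-CTLA-4 (-0.66 ± 0.06). Sparc, a matrix-binding glycoprotein, fell by 0.92. Ltc4s, which makes leukotriene C4, fell furthest of the list (-1.21), while Olfml3 (-0.08) and Bin1 (-0.09) did not pass the test.

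Of 26 tested monocyte-derived macrophage genes, 20 were higher and 4 lower (median 0.51). Chil3, described below, is counted both here and in the interleukin-4 list. Ly6c2, a surface marker of inflammatory monocytes, stood at 34.03 and 30.7 CPM with isotype antibody and 101 and 93.2 CPM with anti-CTLA-4 (log2 fold change 1.59 ± 0.06, adjusted p = 5.40e-19). Ccr2, the receptor that draws monocytes out of the marrow, stood at 124 and 107 CPM with isotype antibody and 273 and 275 CPM with anti-CTLA-4 (1.25 ± 0.06). Fn1, fibronectin, stood at 500.5 and 596 CPM with isotype antibody and 1362 and 1370 CPM with anti-CTLA-4 (1.32 ± 0.05), the isotype libraries differing more from each other than the treated ones. S100a10, a partner of annexin, rose by 0.96 and Lgals3, galectin-3, by 0.65. Genes of macrophages at brain borders split, 6 higher and 6 lower of 15: F13a1, a coagulation transglutaminase, fell by 0.81, and Pf4, a platelet-type chemokine, rose by 0.41. Dendritic cell genes were higher in 11 and lower in 5 of 24, but their summed level was lower, at 1654 and 1623 CPM with isotype antibody and 1309 and 1331 CPM with anti-CTLA-4. Among them Irf4 (1.01), which is also in the interleukin-4 list, and Batf3 (1.32), transcription factors of conventional dendritic cells, and Clec9a (1.54), a receptor for dead cells, rose. Cd83, a maturation marker and the most abundant gene named from the list, stood at 1191 and 1164 CPM with isotype antibody and 776 and 783 CPM with anti-CTLA-4 (-0.60 ± 0.04). Of the defining genes, Zbtb46, a transcription factor of the lineage, fell by 0.55, a call lost without isotype replicate 2 (-0.35) and without either anti-CTLA-4 replicate (-0.46 and -0.63). Flt3, a growth factor receptor, did not pass the test (-0.15). In bulk RNA, fewer cells of a type and less RNA per cell cannot be told apart.

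Among transcription factors of the macrophage lineage, 13 were higher and 14 lower of 36. Egr2 stood at 90.7 and 88.5 CPM with isotype antibody and 218 and 222 CPM with anti-CTLA-4 (log2 fold change 1.29 ± 0.05). Tfec, a relative of the lysosome regulator TFEB, stood at 56.1 and 54.6 CPM with isotype antibody and 120.3 and 119.9 CPM with anti-CTLA-4 (1.12 ± 0.05). Mitf of the same family rose by 0.53 and Ahr, the aryl hydrocarbon receptor, by 0.62. Id3, an inhibitor of helix-loop-helix factors, fell by 1.22 and Smad3, a transducer of TGF-beta, by 0.69.

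The interleukin-4 and STAT6 responsive genes were higher in 21 and lower in 2 of 28, with a median of 1.04. Their summed level was 11760 and 11240 CPM with isotype antibody and 22870 and 22870 CPM with anti-CTLA-4. Chil3, a chitinase-like lectin, stood at 269 and 252 CPM with isotype antibody and 1733 and 1750 CPM with anti-CTLA-4 (log2 fold change 2.74 ± 0.05, adjusted p = 4.14e-28). Arg1, which splits arginine into ornithine and urea, stood at 998 and 937 CPM with isotype antibody and 3470 and 3449 CPM with anti-CTLA-4 (1.84 ± 0.04, adjusted p = 5.77e-25). Mgl2, the lectin CD301b, stood at 54.6 and 53.7 CPM with isotype antibody and 341 and 341 CPM with anti-CTLA-4 (2.65 ± 0.05, adjusted p = 1.57e-26). In each of these 3 genes the libraries of a group lay close together and the groups far apart. Pdcd1lg2 stood at 30.04 and 30.4 CPM with isotype antibody and 240.3 and 246 CPM with anti-CTLA-4 (3.01 ± 0.05). Alox15, which oxygenates arachidonic acid, went from 3.95 and 3.11 to 38.4 and 39.99 CPM (3.47 ± 0.12). Cdh1, E-cadherin, went from 3.92 and 3.38 to 42.8 and 42.4 CPM (3.54 ± 0.11). Retnla, a secreted resistin-like protein, rose by 3.27. The feedback inhibitors of cytokine receptors Cish and Socs2 rose by 1.43 and 1.11. Stat6 itself (-0.03) and Mrc1, the mannose receptor (0.01), did not pass the test. Il13ra1, a subunit of the interleukin-13 receptor, fell by 0.21 and Myc by 0.36, the latter call being lost without isotype replicate 2 (-0.20).

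**Figure D3:**
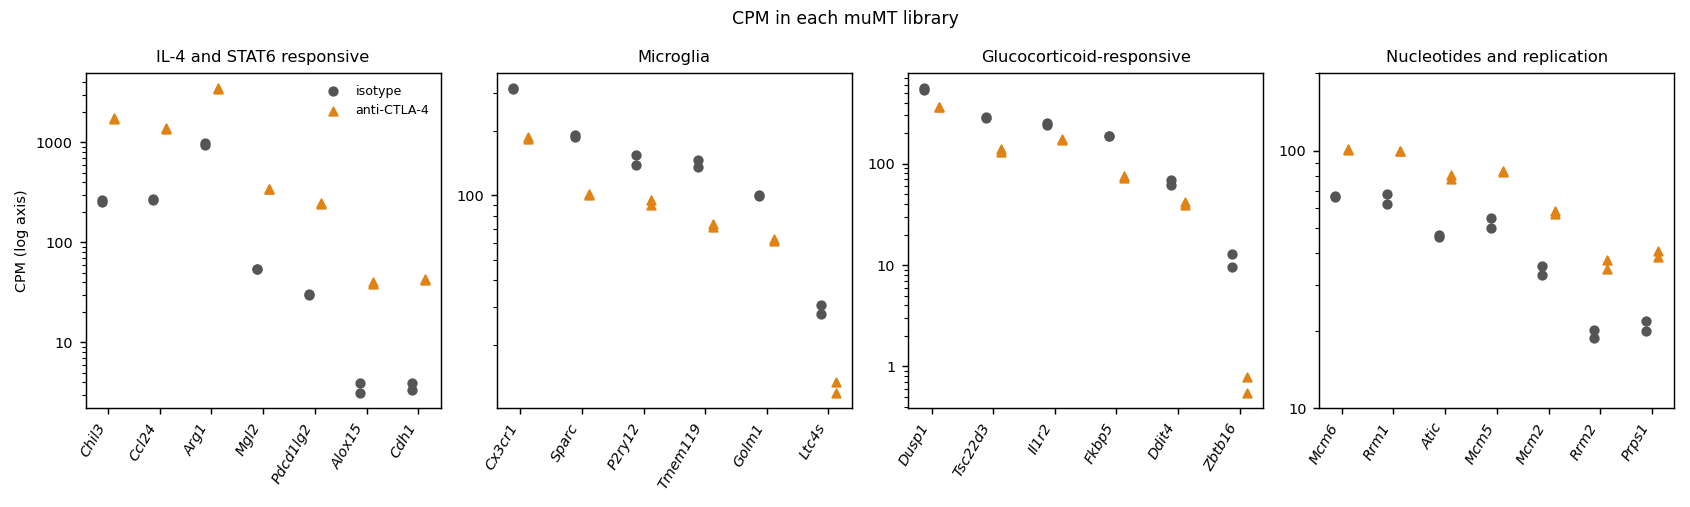
Points give the CPM of each gene in the 2 isotype (grey circles) and 2 anti-CTLA-4 (orange triangles) libraries of muMT mice, on log axes, for members of the 4 lists named above the panels. The groups do not overlap in any of the genes shown: triangles lie above circles in the interleukin-4 and nucleotide or replication panels and below them in the microglia and glucocorticoid panels. The genes are a selection, so this separation is no further support. Members that did not pass the test or went the other way, such as Stat6, Mrc1, Myc and Bin1, are not shown.

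CC chemokines were higher in 9 and lower in 2 of 15 (median 0.96). Ccl17, Ccl22 and Ccl24 are counted in both this list and the interleukin-4 list. Ccl24, an attractant of eosinophils that is also counted among the STAT6 genes, stood at 270.0 and 264 CPM with isotype antibody and 1375 and 1385 CPM with anti-CTLA-4 (log2 fold change 2.37 ± 0.05, adjusted p = 6.27e-27). Ccl6 stood at 809.7 and 821 CPM with isotype antibody and 1947 and 1995 CPM with anti-CTLA-4 (1.27 ± 0.04) and Ccl9 at 406 and 378 and 1096 and 1116 CPM (1.50 ± 0.04), both rodent chemokines that act on CCR1. Ccl7 and Ccl8, which attract monocytes, rose by 1.27 and 0.97. Ccl17, a ligand of CCR4 on type 2 helper T cells, went from 2.68 and 3.15 to 25.1 and 25.9 CPM (3.13 ± 0.13). Ccl5, which attracts T cells, did not pass the test (-0.16). Among CXC chemokines 6 of 14 were higher and 3 lower, the clearest being Cxcl3 (1.52), which attracts neutrophils. Of 23 chemoattractant receptors, 7 were higher and 8 lower. Cxcr4, the receptor for CXCL12, stood at 509 and 519 CPM with isotype antibody and 251 and 251 CPM with anti-CTLA-4 (-1.03 ± 0.04), and Ccrl2, a receptor that binds chemerin, fell by 0.47. Ltb4r1, the leukotriene B4 receptor, rose by 2.06.

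All 18 tested guanylate-binding proteins and immunity-related GTPases, which attack vacuoles that hold pathogens, were higher, with a median of 0.65. Gbp2, whose promoter is printed above, stood at 299 and 289 CPM with isotype antibody and 563 and 561 CPM with anti-CTLA-4 (log2 fold change 0.93 ± 0.04, adjusted p = 1.91e-17). Iigp1 stood at 118 and 99.3 CPM with isotype antibody and 243 and 246 CPM with anti-CTLA-4 (1.17 ± 0.06) and Ifi47 at 78.1 and 76.9 and 145 and 150.5 CPM (0.93 ± 0.05). These genes have close relatives, and reads shared between copies such as Tgtp1 and Tgtp2 were not counted, so the values of single members are uncertain. Of 27 interferon receptors, kinases and transcription factors, 14 were higher and 6 lower. The transcription factors Irf1 and Irf7 rose by 0.44 and 0.54, but Ifngr1, the ligand-binding chain of the interferon-gamma receptor, fell by 0.63. Ifnb1, interferon-beta, fell from 7.97 and 6.32 to 1.78 and 1.77 CPM (-2.01 ± 0.19), and Ifng, interferon-gamma itself, was at 1.86 and 1.35 CPM with isotype antibody and 3.69 and 2.93 CPM with anti-CTLA-4 (1.04 ± 0.23).

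Cytosolic nucleic acid sensors were higher in 14 and lower in 3 of 19. Samhd1, which breaks down deoxynucleotides, rose by 0.72, Zbp1, a sensor of Z-form nucleic acid, by 0.82, and Sting1, the adaptor of cyclic dinucleotide sensing, by 0.67. Of 20 genes of the immunoproteasome and class I loading, 15 were higher and 1 lower (median 0.47). Psme2, an activator of the proteasome, stood at 112 and 106 CPM with isotype antibody and 196 and 199 CPM with anti-CTLA-4 (log2 fold change 0.86 ± 0.05), and the catalytic subunits Psmb8 and Psmb10 rose by 0.63 and 0.81. MHC class II presentation genes were higher in 9 and lower in 1 of 17. Ciita, the master activator of class II genes, stood at 76.2 and 79.03 CPM with isotype antibody and 138 and 134 CPM with anti-CTLA-4 (0.81 ± 0.05), and H2-DMb2, a chain of the peptide editor H2-DM, rose by 1.03.

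Inflammatory signals did not move as a block. Of 28 cytokines, 9 were higher and 10 lower. Il10, an anti-inflammatory cytokine, stood at 76.7 and 73.7 CPM with isotype antibody and 41.2 and 42.1 CPM with anti-CTLA-4 (log2 fold change -0.85 ± 0.06, adjusted p = 6.94e-13). Tnf stood at 240.5 and 242 CPM with isotype antibody and 162 and 149 CPM with anti-CTLA-4 (-0.64 ± 0.05, adjusted p = 6.96e-12). Il6 stood at 15.1 and 13.9 CPM with isotype antibody and 29.2 and 27.9 CPM with anti-CTLA-4 (0.98 ± 0.08), opposite in direction to Tnf. Osm, a cytokine of the same family as interleukin-6, rose by 0.50 and Il1rn, the antagonist of the interleukin-1 receptor, by 0.59. Of 22 NF-kB subunits and feedback inhibitors, 9 were lower and 2 higher: Tnfaip3 (A20) fell by 0.45 and Nfkbiz by 0.45, while Tnip3, a partner of A20, rose by 1.56 and Nfkb1 by 0.27. Immediate early genes were lower in 13 and higher in 5 of 26, with Fos at 1408 and 1390 CPM with isotype antibody and 1008 and 995 CPM with anti-CTLA-4 (-0.48 ± 0.04) and Jun falling by 0.52. Toll-like receptors and adaptors split evenly, 7 higher and 7 lower of 26. Tlr4, the receptor for lipopolysaccharide, stood at 154 and 142 CPM with isotype antibody and 271 and 270.4 CPM with anti-CTLA-4 (0.87 ± 0.05), whereas Tlr7 and Tlr13, which sense RNA, fell by 0.90 and 0.55.

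Glucocorticoid-responsive genes fell as a group, 13 lower and 1 higher of 20 (median -0.42). Fkbp5, a chaperone that dampens the glucocorticoid receptor, stood at 188 and 187 CPM with isotype antibody and 75.5 and 72.8 CPM with anti-CTLA-4 (log2 fold change -1.34 ± 0.05, adjusted p = 2.18e-19). Tsc22d3, known as GILZ, stood at 286 and 280.0 CPM with isotype antibody and 132 and 139 CPM with anti-CTLA-4 (-1.07 ± 0.05, adjusted p = 1.37e-17). Zbtb16, a zinc finger repressor, stood at 9.57 and 12.9 CPM with isotype antibody and 0.791 and 0.544 CPM with anti-CTLA-4 (-4.06 ± 0.24, adjusted p = 1.06e-14), and Ddit4, an inhibitor of mTORC1, fell by 0.69. Of 18 circadian clock genes, 10 were lower and 2 higher, although their sum was not lower, at 1298 and 1348 against 1474 and 1483 CPM. Rora, an activator of Bmal1, fell by 0.70, and of the related repressors Bhlhe41 fell by 0.69 and Bhlhe40 rose by 0.42. The time of day of harvest is not given in the sources used here, and its part in these changes was not tested.

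Of 40 genes of the TGF-beta, activin and BMP pathway, 21 were lower and 6 higher (median -0.29), while their summed level was higher, at 5318 and 5360 CPM with isotype antibody and 5726 and 5718 CPM with anti-CTLA-4. The pathway's ligands moved in both directions. Inhba, the activin A subunit, stood at 20.8 and 22.9 CPM with isotype antibody and 239 and 241 CPM with anti-CTLA-4 (log2 fold change 3.46 ± 0.07, adjusted p = 6.27e-27). Tgfb3 stood at 81.2 and 85.5 CPM with isotype antibody and 26.4 and 23.9 CPM with anti-CTLA-4 (-1.73 ± 0.07, adjusted p = 2.39e-19). Fstl1, a secreted modulator of the pathway, fell by 1.40, and Tgfbi, a matrix protein induced by TGF-beta, rose by 0.43. Matrix proteases and their inhibitors were lower in 15 and higher in 10 of 33, at sums of 5942 and 5901 against 6934 and 6971 CPM, the treated libraries being higher. Mmp3, stromelysin, stood at 39.9 and 36.1 CPM with isotype antibody and 7.62 and 6.91 CPM with anti-CTLA-4 (-2.39 ± 0.10), and Timp3, a protease inhibitor, fell by 1.75. Mmp12, the macrophage elastase, stood at 1126 and 1003 CPM with isotype antibody and 1792 and 1825 CPM with anti-CTLA-4 (0.76 ± 0.05). Growth factors split 9 higher to 10 lower of 27: Igf1 (1.23), Nrg1 (1.26) and Hbegf (1.19), a ligand of the EGF receptor, rose, and Pdgfb fell by 0.87.

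Genes for growth and division rose broadly and by small amounts. DNA replication genes were higher in 31 of 35 and lower in none (median 0.52). Mcm5, whose promoter is printed above, stood at 54.9 and 50.1 CPM with isotype antibody and 83.3 and 82.4 CPM with anti-CTLA-4 (log2 fold change 0.66 ± 0.06, adjusted p = 1.11e-10). Mcm2 stood at 32.9 and 35.8 CPM with isotype antibody and 56.7 and 58.3 CPM with anti-CTLA-4 (0.74 ± 0.07) and Uhrf1, which recruits the maintenance methyltransferase, at 29.4 and 29.9 and 47.7 and 51.8 CPM (0.75 ± 0.07). Nucleotide and one-carbon synthesis genes were higher in 22 and lower in 1 of 27 (median 0.52). Prps1, which starts nucleotide synthesis from ribose phosphate, stood at 19.98 and 21.7 CPM with isotype antibody and 40.7 and 38.8 CPM with anti-CTLA-4 (0.93 ± 0.08). Rrm2, the regulated subunit of ribonucleotide reductase, stood at 18.7 and 20.1 CPM with isotype antibody and 34.6 and 37.7 CPM with anti-CTLA-4 (0.90 ± 0.08), and the purine enzyme Atic rose by 0.76. Mitosis genes moved less, with 16 higher and 2 lower of 36 (median 0.17), among them Bub1b, a spindle checkpoint kinase (0.61), and Top2a (0.33). Replication-dependent histones were higher in 30 of 59 and lower in 3 (median 0.27), with reads shared between identical copies left uncounted.

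The machinery of protein synthesis and breakdown followed the same direction. Ribosome biogenesis factors were higher in 25 of 30 (median 0.41), cytoplasmic tRNA synthetases in 17 of 20 (0.41) and constitutive proteasome subunits in 31 of 33 (0.37), with none lower in these 3 lists. Bop1, which processes ribosomal RNA, stood at 41.6 and 38.9 CPM with isotype antibody and 63.03 and 62.01 CPM with anti-CTLA-4 (log2 fold change 0.63 ± 0.07). Wars1, the tryptophanyl-tRNA synthetase, stood at 44.9 and 46.6 CPM with isotype antibody and 73.7 and 76.4 CPM with anti-CTLA-4 (0.71 ± 0.06). Psma7, a subunit of the proteasome core, stood at 111 and 109 CPM with isotype antibody and 167 and 162 CPM with anti-CTLA-4 (0.58 ± 0.05). Each of these genes was higher in both treated libraries than in either control, as were 99.9% of all genes called higher. Eif5a, a translation factor that carries hypusine, stood at 252 and 249 CPM with isotype antibody and 443 and 444 CPM with anti-CTLA-4 (0.83 ± 0.04), and 21 of 32 translation factors were higher and 3 lower. Splicing factors were higher in 23 and lower in 1 of 33, with Srsf1 at 0.56. Proteins of the cytoplasmic ribosome itself barely moved: 19 of 79 were higher and 3 lower, near the share of all genes in the higher direction, with a median of 0.06.

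Nuclear genes for mitochondria rose while transcripts of the mitochondrial genome did not. Of 73 subunits of the respiratory chain and ATP synthase, 60 were higher and none lower (median 0.33). Cycs, cytochrome c, stood at 60.1 and 56.9 CPM with isotype antibody and 98.1 and 102 CPM with anti-CTLA-4 (log2 fold change 0.78 ± 0.06, adjusted p = 1.49e-12). Cox7b stood at 96.6 and 91.5 CPM with isotype antibody and 149.5 and 156 CPM with anti-CTLA-4 (0.70 ± 0.05). Mitochondrial ribosomal proteins were higher in 59 of 78 with none lower (median 0.32). TCA cycle genes were higher in 20 and lower in 1 of 26, with Mdh2, malate dehydrogenase, at 69.7 and 76.96 CPM with isotype antibody and 123.1 and 118 CPM with anti-CTLA-4 (0.72 ± 0.06). Of 11 tested mitochondrially encoded genes none was higher and 2 were lower. These were the ribosomal RNA genes, mt-Rnr2 at 5586 and 5710 CPM with isotype antibody and 4575 and 4661 CPM with anti-CTLA-4 (-0.29 ± 0.04) and mt-Rnr1 (-0.23), and the libraries had been depleted of ribosomal RNA. The call of mt-Rnr1 was lost without isotype replicate 2 (-0.10) and without anti-CTLA-4 replicate 1 (-0.18). COX1, a subunit of complex IV, was at 4854 and 4456 CPM with isotype antibody and 4340 and 4347 CPM with anti-CTLA-4 and did not pass the test (-0.10, adjusted p = 0.0501), though it did without isotype replicate 2 (-0.15, adjusted p = 0.000871).

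Chaperones of the endoplasmic reticulum and genes of the unfolded protein response were higher in 17 and lower in 4 of 22. Pdia4, a disulfide isomerase, stood at 235 and 218 CPM with isotype antibody and 493 and 496 CPM with anti-CTLA-4 (log2 fold change 1.13 ± 0.05, adjusted p = 1.30e-18). Sdf2l1 (0.85) and Creld2 (0.74), secretory chaperone partners, rose too, but Herpud1, a factor of protein degradation at the same membrane, fell by 0.80. Of 23 heat shock genes, 13 were higher and 4 lower. Hspa1a stood at 181 and 189 CPM with isotype antibody and 100.1 and 104 CPM with anti-CTLA-4 (-0.86 ± 0.05) and its near-identical neighbour Hspa1b fell by 0.97, while the chaperonin subunits Cct3 (0.59) and Hspe1 (0.54) rose. NRF2 antioxidant genes were higher in 15 and lower in 3 of 21, with Prdx1, a peroxiredoxin, at 445 and 432 CPM with isotype antibody and 672 and 676 CPM with anti-CTLA-4 (0.62 ± 0.04) and Slc7a11, the cystine importer, rising by 0.67. Autophagy genes were lower in 12 and higher in 5 of 25, including the initiating kinases Ulk1 (-0.59) and Ulk2 (-0.55).

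Sterol efflux and cholesterol synthesis genes had calls mostly in opposite directions, while fatty acid synthesis genes were higher in 4 and lower in 6 of 19 (median -0.06). Apoe, the lipoprotein that carries cholesterol out of macrophages, stood at 15400 and 16550 CPM with isotype antibody and 6989 and 6879 CPM with anti-CTLA-4 (log2 fold change -1.20 ± 0.05, adjusted p = 4.49e-19). It was the largest loss in CPM of any gene that the naming rule took. Of 18 LXR targets and sterol efflux genes, 11 were lower and 3 higher. Pltp, a phospholipid transfer protein, fell by 1.15 and Mylip, a ubiquitin ligase, by 0.82. Cholesterol synthesis genes were higher in 13 and lower in 1 of 23, by small amounts (median 0.23). The lower gene was Pmvk (-0.64). The scavenger receptor Cd36, which takes up oxidised lipid, stood at 116 and 108 CPM with isotype antibody and 329 and 329.7 CPM with anti-CTLA-4 (1.56 ± 0.05, adjusted p = 7.40e-21), and Fabp5, a fatty acid carrier, rose by 0.88.

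Glycolysis genes were higher in 16 and lower in 4 of 24. Hk3, a hexokinase of myeloid cells, stood at 159 and 159 CPM with isotype antibody and 331 and 331 CPM with anti-CTLA-4 (log2 fold change 1.06 ± 0.04), and Pfkp rose by 0.80. The glucose transporter Slc2a3 fell by 1.16 and Pfkfb3, which activates phosphofructokinase, by 0.51. Hypoxia genes were lower in 9 and higher in 5 of 21, at sums of 3184 and 3096 against 3421 and 3426 CPM, the treated libraries being higher. Hif1a rose by 0.72 while its targets Car9 (-0.80) and Bnip3 (-0.59) fell. Arginine, nitric oxide and polyamine genes were higher in 13 and lower in 1 of 21. Besides Arg1, Slc7a2, a transporter of arginine, stood at 232 and 239 CPM with isotype antibody and 739 and 737 CPM with anti-CTLA-4 (1.65 ± 0.04, adjusted p = 2.85e-23). Nos2, the inducible nitric oxide synthase that competes for arginine, also rose, from 40.4 and 46.3 to 122 and 117 CPM (1.47 ± 0.06, adjusted p = 5.14e-19). Ass1, which rebuilds arginine from citrulline, rose by 1.58.

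Among receptors and effectors, calls were mostly higher for lectins and actin genes and more often lower for complement genes and lysosomal hydrolases. C-type lectins were higher in 15 and lower in 2 of 21. Clec7a, Clec10a, Mgl2, Cd209a and Mrc1 are counted in both this list and the interleukin-4 list. Clec7a, Dectin-1, the receptor for fungal glucan, stood at 3358 and 2958 CPM with isotype antibody and 6635 and 6696 CPM with anti-CTLA-4 (log2 fold change 1.08 ± 0.05, adjusted p = 3.85e-18), and Olr1, a receptor for oxidised LDL, rose by 1.53. Complement genes were lower in 11 and higher in 5 of 22 (median -0.19), at sums of 12350 and 12690 against 11770 and 11660 CPM. C3, the central component, stood at 356 and 382 CPM with isotype antibody and 1031 and 1030 CPM with anti-CTLA-4 (1.48 ± 0.04, adjusted p = 4.45e-22). C1qa fell by 0.28 and C4b by 0.77. Among 11 IgG Fc receptors and partners, 3 were higher and 3 lower: the inhibitory receptor Fcgr2b stood at 783 and 784 CPM with isotype antibody and 1002 and 1004 CPM with anti-CTLA-4 (0.36 ± 0.04) and the high-affinity receptor Fcgr1 rose by 0.24.

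Engulfment and actin genes were higher in 19 and lower in 3 of 35, with Lcp1, an actin bundler, at 1113 and 1105 CPM with isotype antibody and 1743 and 1732 CPM with anti-CTLA-4 (log2 fold change 0.65 ± 0.04), Myo1f rising by 0.69 and Arpc5 by 0.39. Efferocytosis and scavenger receptors were lower in 12 and higher in 6 of 27. Mertk, a receptor tyrosine kinase for apoptotic cells, stood at 522 and 531 CPM with isotype antibody and 374 and 367 CPM with anti-CTLA-4 (-0.51 ± 0.04), and Trem2 and Stab1 fell by 0.32 and 0.53. Lysosomal hydrolases were lower in 21 and higher in 12 of 43 (median -0.09), at sums of 49930 and 48990 against 47260 and 47020 CPM. Lgmn, an asparaginyl protease, fell by 0.45, and among the cathepsins Ctsb and Ctsd fell by 0.25 and 0.19 while Ctsc and Ctsk rose by 0.47 and 1.48. Integrins and adhesion ligands were lower in 14 and higher in 9 of 27. Vcam1, a ligand of integrin alpha4 beta1, stood at 1179 and 1122 CPM with isotype antibody and 566 and 565 CPM with anti-CTLA-4 (-1.02 ± 0.04, adjusted p = 1.22e-18), Itgb5 fell by 0.60, and Itgb2 and Cd44 rose by 0.44 and 0.50. Of 19 B7 and TNF family ligands of T cells, 5 were higher and 9 lower: besides Pdcd1lg2, Cd274, which encodes PD-L1, rose by 0.32, while Vsir (VISTA) and Icosl fell by 0.59 and 0.74. Lag3, an inhibitory receptor that binds class II, stood at 61.4 and 71.2 CPM with isotype antibody and 30.1 and 32.4 CPM with anti-CTLA-4 (-1.09 ± 0.07).

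Ranked by the change in CPM rather than by fold, the rises among the most abundant transcripts included Actb, beta-actin, at 7817 and 8139 CPM with isotype antibody and 11390 and 11430 CPM with anti-CTLA-4 (log2 fold change 0.52 ± 0.04). Tgm2, a transglutaminase of alternatively activated macrophages, stood at 1614 and 1659 CPM with isotype antibody and 2887 and 2849 CPM with anti-CTLA-4 (0.81 ± 0.04). Tmsb4x, which holds monomeric actin, rose by 0.31, Ftl1, ferritin light chain, by 0.30 and Psap, the precursor of saposins, by 0.18. Among the falls, Rgs1, an inhibitor of G protein signalling, stood at 3247 and 2766 CPM with isotype antibody and 1885 and 1867 CPM with anti-CTLA-4 (-0.68 ± 0.05). Selenop, a selenium carrier, stood at 1642 and 1454 CPM with isotype antibody and 844 and 839 CPM with anti-CTLA-4 (-0.88 ± 0.05), and Trf, transferrin, fell by 0.56. Thbs1, thrombospondin, fell by 0.19. Several noncoding RNAs that take many reads were also lower: Rn7sk stood at 16320 and 16420 CPM with isotype antibody and 12690 and 12700 CPM with anti-CTLA-4 (-0.37 ± 0.04), Rmrp fell by 0.62 and Malat1 by 0.14. The call of Malat1 was lost without isotype replicate 2 (-0.08) and without either anti-CTLA-4 replicate (-0.11 and -0.14).

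Of the genes changed at least 2-fold with at least 5 CPM on average and no overlap between groups, 112 were higher and 190 lower. No overlap alone held for 68.5% of all tested genes. Of the 112 and 190, those ranked 13 to 30 by p in each direction were taken beyond the strongest few. Among the higher ones, F10, coagulation factor X, stood at 98.9 and 103 CPM with isotype antibody and 298 and 286 CPM with anti-CTLA-4 (log2 fold change 1.53 ± 0.05, adjusted p = 2.71e-21) and F7, which binds tissue factor, at 108 and 105 CPM with isotype antibody and 300.1 and 306 CPM with anti-CTLA-4 (1.51 ± 0.05, adjusted p = 2.82e-21). Naaa, which breaks down fatty acid ethanolamides, stood at 119 and 110.4 CPM with isotype antibody and 301 and 302 CPM with anti-CTLA-4 (1.39 ± 0.05, adjusted p = 5.98e-20). Rnase2a, of the eosinophil-associated ribonucleases, stood at 2.94 and 3.52 CPM with isotype antibody and 37.4 and 38.6 CPM with anti-CTLA-4 (3.56 ± 0.12, adjusted p = 1.17e-20). Anxa4, an annexin (1.26), Capg, which caps actin filaments (1.29), Bst1, a cyclic ADP-ribose synthase (1.73), Dok2, an adaptor that restrains Ras (1.37), Ly6i (1.63), Flrt3, an adhesion protein (1.55), and Flt1, a VEGF receptor (1.67), completed the higher ranks with genes already named. On the lower side Cadm1, an adhesion molecule, stood at 114 and 116 CPM with isotype antibody and 47.6 and 42.9 CPM with anti-CTLA-4 (-1.35 ± 0.06, adjusted p = 5.19e-18). Pmp22, a membrane protein of myelin and other cells, stood at 111 and 104 CPM with isotype antibody and 39.3 and 42.4 CPM with anti-CTLA-4 (-1.39 ± 0.06, adjusted p = 4.16e-17). Slco2b1, an organic anion transporter, stood at 109.8 and 113 CPM with isotype antibody and 48.6 and 47 CPM with anti-CTLA-4 (-1.22 ± 0.06, adjusted p = 4.15e-17). Ssh2, a cofilin phosphatase (-1.03), Adam19, a metalloprotease (-1.67), Matn2, a matrix protein (-1.70), Syne1, which ties the nucleus to the cytoskeleton (-1.13), Abca9 (-1.15), Abhd15 (-1.77) and Tmcc3 (-1.06) were also lower.

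Markers of other cell types fell with anti-CTLA-4 in several lists, beside the losses described for matrix, adhesion and TGF-beta genes. Of 176 tested genes in 13 such lists, 88 were called lower and 17 higher. Fibroblast and mural markers were lower in 20 of 22 with none higher, and their summed level was 767 and 783 CPM with isotype antibody and 258 and 257 CPM with anti-CTLA-4. Col3a1, a fibrillar collagen, stood at 189.5 and 182 CPM with isotype antibody and 65 and 62.99 CPM with anti-CTLA-4 (log2 fold change -1.54 ± 0.05, adjusted p = 1.20e-20), and Mgp, matrix Gla protein, at 62.01 and 62.9 CPM with isotype antibody and 4.29 and 4.66 CPM with anti-CTLA-4 (-3.80 ± 0.09, adjusted p = 3.11e-24). Mast cell and basophil markers were lower in 9 of 11, from sums of 73.4 and 73.8 CPM to 27.1 and 29.4 CPM. Mcpt1, a mast cell protease, stood at 21.6 and 21.6 CPM with isotype antibody and 1.62 and 1.70 CPM with anti-CTLA-4 (-3.70 ± 0.14, adjusted p = 1.97e-19), and like the other Mcpt genes it has close relatives. Oligodendrocyte lineage markers were lower in 12 and higher in 2 of 17, from sums of 180.5 and 188 CPM to 149 and 149 CPM. Neural progenitor and glioma-associated genes were lower in 12 and higher in 1 of 16, H19 standing at 44.9 and 45.1 CPM with isotype antibody and 10.6 and 10.2 CPM with anti-CTLA-4 (-2.11 ± 0.09).

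Endothelial markers were lower in 12 and higher in 4 of 20, but their summed level was not lower, at 824 and 842 CPM with isotype antibody and 885 and 889.5 CPM with anti-CTLA-4. Cldn5, a tight junction protein, fell by 0.69, while Pecam1, which leukocytes also carry, rose by 0.88. T cell markers were lower in 8 and higher in 2 of 23, at sums of 158 and 151 against 157 and 154 CPM. Ctla4, the target of the antibody, stood at 11.4 and 10.4 CPM with isotype antibody and 4.82 and 3.91 CPM with anti-CTLA-4 (log2 fold change -1.32 ± 0.14). Icos fell by 1.30 and Cd4 by 1.04. The T cell markers named here all fell, but 13 of the 23 were not called and the list ran from -1.32 to 0.65. Gzma, a granzyme of cytotoxic cells, fell by 1.13. Of 19 NK and cytotoxic markers, 2 were higher and 2 lower, with log2 fold changes from -1.33 to 1.07. Neutrophil markers were higher in 3 and lower in 4 of 15. The part of these cells in the results above was not tested.

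**Figure D4:**
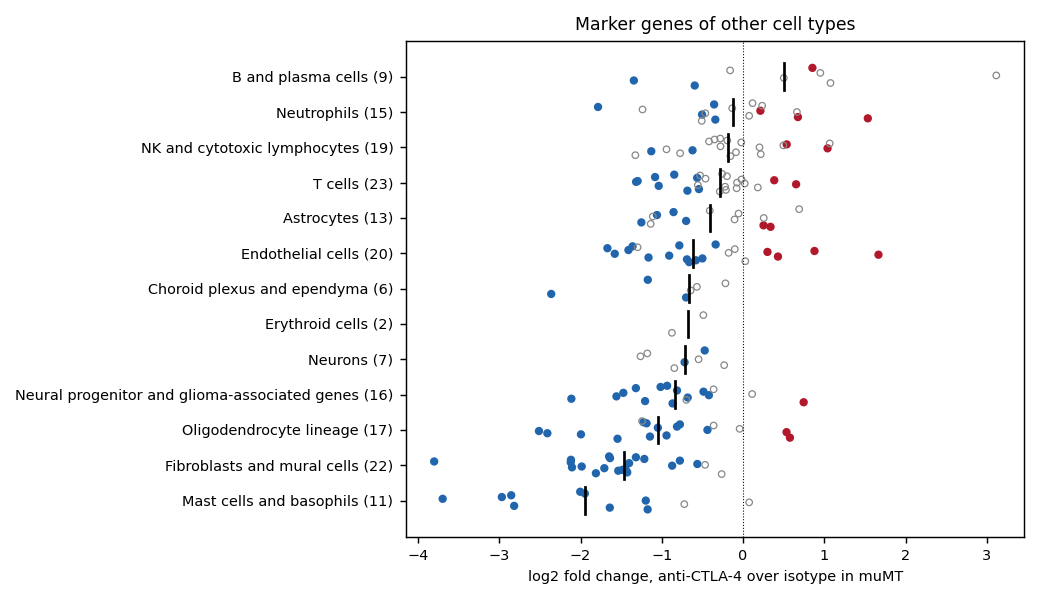
Each point is a tested marker gene of another cell type (number tested in brackets) with its log2 fold change in muMT, filled red or blue where called higher or lower and open where not called, with the list median as a black bar. Markers with 0 reads in muMT are not drawn, and the medians of fibroblast and mast cell markers, -1.47 and -1.95, lie farthest to the left.

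The length of a gene went with its direction. Protein-coding genes that span 5 to 20 kb on GRCm38.p6 were called higher in 30.4% and lower in 17.7%. Protein-coding genes over 100 kb were higher in 16.3% and lower in 37.4%. Between these bins the share called lower went up with every step of length. The median level was 17.4 and 15.1 CPM in these bins and 24.5 and 26.7 CPM in those between, so level was not even. The share of reads outside genes, given above, also differed between the groups, and its part in this was not tested. Long noncoding genes made up 3.32% of all genes called higher and 4.78% of all called lower, both below their 9.82% of all tested genes. Among genes changed by at least 2-fold they made up 21.4% of the higher and 7.78% of the lower ones.

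The antibody effect in muMT mice differed from that in WT mice for 6194 of the 16608 genes (37.3%), tested as an interaction in the same fit. Of the 3678 genes higher in muMT, 811 were also called higher in WT, 817 were called lower there and 2050 were not called. Of the 3385 genes lower in muMT, 821 were called lower in WT, 492 higher and 2072 not called. The shares of all tested genes called in WT are not given here, so these counts stand without a base rate. Chil3 rose in muMT but in WT stood at 124 and 125 CPM with isotype antibody and 29.6 and 30.5 CPM with anti-CTLA-4 (muMT effect minus WT effect 4.79 ± 0.07, adjusted p = 4.10e-30). Ccl24 in WT stood at 502 and 469 and 94.9 and 92.2 CPM (difference 4.75 ± 0.07, adjusted p = 2.06e-30). Nos2 rose in both hosts and further in WT, from 85.9 and 86.1 to 474 and 457 CPM (difference -0.97 ± 0.08, adjusted p = 2.06e-11). Apoe fell in both and further in muMT, WT standing at 13220 and 11710 and 9539 and 9679 CPM (difference -0.83 ± 0.06, adjusted p = 1.19e-11). Col1a2, a collagen chain, fell in muMT by 1.43 and stood at 55.7 and 55.9 and 48.6 and 49.97 CPM in WT (difference -1.25 ± 0.09, adjusted p = 6.36e-13).

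Lists of growth and mitochondrial genes differed between the hosts, given here as counts of members whose effect was called higher or lower in muMT than in WT. All 20 tRNA synthetases, 68 of 73 respiratory chain subunits, 74 of 79 cytoplasmic ribosomal proteins and 32 of 35 replication genes had a higher effect in muMT, none of these lists had a member with a lower one, and each share lies above the 37.3% of all genes. The median change of replication genes was 0.52 in muMT and -0.36 in WT. Interleukin-4 responsive genes had 22 higher and 1 lower of 28 (medians 1.04 and -0.34). The interferon-induced GTPases had medians of 0.65 in muMT and 0.80 in WT, with 3 members whose effect was called higher in muMT and 7 lower. Glucocorticoid-responsive genes had medians of -0.42 and -0.77, and 5 members in each direction. The share of aligned reads in no gene moved in opposite directions in the hosts. In WT it was 28.4% and 29.54% with isotype antibody and 33.34% and 33.05% with anti-CTLA-4, while in muMT it was lower with anti-CTLA-4. Its part in these differences between hosts was not tested.

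**Figure D5:**
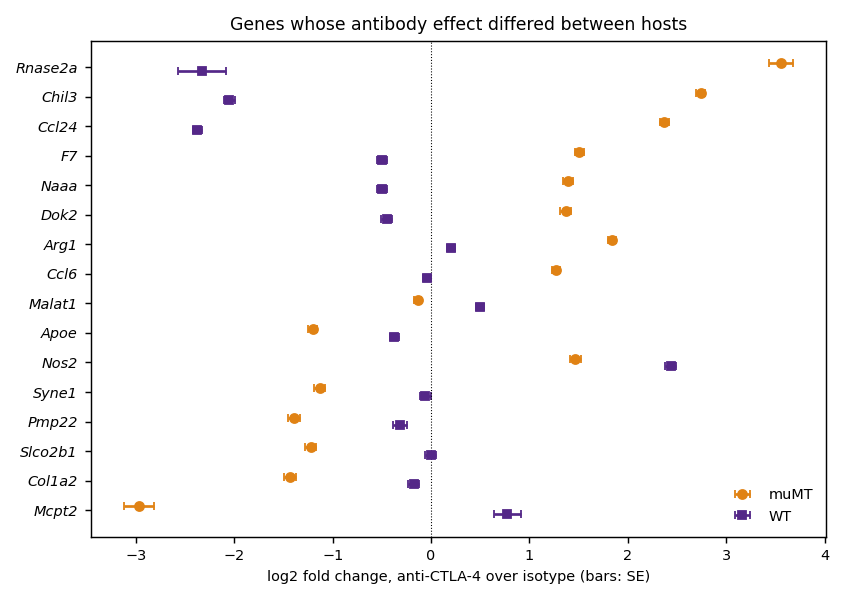
Points give the log2 fold change, anti-CTLA-4 over isotype, with its SE, in muMT (orange circles) and WT (purple squares) for 16 genes, the 8 in each direction with the smallest p of the difference among those taken by their CPM change or by ranks 13 to 30. Chil3, Ccl24 and Rnase2a lie on opposite sides of 0 in the hosts, and Nos2 lies above 0 in both.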

How the data were processed

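RNA of sorted phagocytes was sequenced as stranded total RNA in 8 libraries. The authors deposited raw counts of reads for each gene, in the column order that STAR writes, without normalization and without reads that map to several places. Per the submitters' processing notes, cutadapt 5.0, STAR 2.7, DESeq2 1.42.1 and mm39 were used, and the gene annotation is not given in the sources used here. The reverse-strand counts were taken, their total being 23.3 to 26.5 times that of the forward strand in every library. The summary rows for reads outside genes were used only for shares.

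Of 50763 listed genes, 30432 had a read and 16608 passed edgeR's filterByExpr by group. TMM factors scaled the libraries, and the quasi-likelihood model of edgeR 4.0.16 under R 4.3.3, with the robust option, had one mean for each of the 4 groups, so that all 8 libraries gave the spread on 4 residual degrees of freedom. The contrasts were muMT anti-CTLA-4 minus muMT isotype and the same effect minus that in WT. Benjamini-Hochberg adjustment ran over all tested genes, and a call is an adjusted p under 0.05. CPM are scaled by TMM, and ± gives the SE of a log2 fold change. Fold changes of genes with few reads depend on edgeR's prior count. The biological coefficient of variation common to all genes came to 4.11%. Between replicates, counts spread 7.73 times as much as counting error alone with isotype antibody and 1.77 times with anti-CTLA-4.

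The comparison, the 84 gene lists and the naming rule were chosen with earlier results of these data known, so a list's direction is no independent support. Named were up to 6 tested members of each list by smallest p and its defining genes, the 15 largest CPM rises and 15 falls among called genes without overlap, and ranks 13 to 30 by p among called genes changed at least 2-fold with at least 5 CPM. A few further list members, and the genes with 0 reads in a group, were named after their values were seen. Some genes that the rule takes are not reported here. RefSeq tables of GRCm38.p6 gave promoters and gene spans, matched by symbol for 95.6% of tested genes. Alternatives were scaling by DESeq2 size factors, testing every gene with a read, counting both strands, a replicate block, the 4 muMT libraries alone, each muMT library left out, and the Wald test of DESeq2 1.42.0. Floors allow for counting error only, because PCR can copy a molecule into several reads.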

Additional observations from a re-analysis of the deposited data

Results flagged for a closer look

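Genes whose antibody effect differed between the hosts are given with the difference of the log2 effects, muMT minus WT, from the edgeR interaction test. They are the 8 genes in each direction with the smallest p of the difference among those named by CPM change or by ranks 13 to 30. Genes named only as list members were not ranked, and some of them, such as C4b (-1.08), had a smaller p. The effect was higher in muMT for Rnase2a (5.88), Chil3 (4.79), Ccl24 (4.75), F7 (2.01), Naaa (1.89), Dok2 (1.82), Arg1 (1.64) and Ccl6 (1.31). Of these, Rnase2a, Chil3, Ccl24, F7, Naaa and Dok2 had log2 effects below 0 in WT (-2.33, -2.05, -2.38, -0.50, -0.50 and -0.45 in turn), Ccl6 one near 0 (-0.04) and Arg1 a small rise (0.20). The effect was lower in muMT for Mcpt2 (-3.75), Col1a2 (-1.25), Slco2b1 (-1.22), Pmp22 (-1.08), Syne1 (-1.07), Nos2 (-0.97), Apoe (-0.83) and Malat1 (-0.63). Mcpt2 had a log2 effect above 0 in WT (0.78), as did Malat1 (0.50), and Nos2 was higher in both hosts. With 2 libraries in a group, a library that stands apart could not be tested for.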

How the results depend on the processing

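Under DESeq2 size factors, no filter, both strands counted, the replicate block, the 4 muMT libraries alone and the DESeq2 Wald test, calls higher in muMT numbered 3056 to 3708 and calls lower 2650 to 3405, against 3678 and 3385. The Wald test gave the lowest of both, 3056 and 2650. With 1 muMT library left out, higher calls ranged from 2938 to 3708, lower calls from 2384 to 3059, higher calls of at least 2-fold from 288 to 351, lower ones of that size from 781 to 909, and genes whose effect differed between hosts from 5044 to 6273. The remaining library of that group is then assumed to vary like the other groups. No shared effect of the replicate number was seen: deviations of muMT replicates with the same number correlated at -0.0137. Between the WT groups, between the isotype groups and between the anti-CTLA-4 groups they correlated at -0.025 to 0.00858. Groups that differ in both host and antibody were not compared. The labels do not say if libraries with the same number were handled together, and these correlations cannot show it. With the replicate block, 3560 genes were higher, 3270 lower and 5929 differed between hosts.

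Of 244 genes named with reads in muMT, 237 to 244 kept their direction and side of the threshold under each alternative. Mrc1, near 0, turned to -0.01 without isotype replicate 2 and ranged from -0.01 to 0.04 with 1 library left out, and Stat6 turned to 0.01 without anti-CTLA-4 replicate 2 and ranged from -0.04 to 0.01. Without isotype replicate 1, Bin1 and Ccl5 passed the threshold. Ptprc did so without isotype replicate 2 (-0.18). COX1 also did with DESeq2 size factors (-0.10), and mt-Rnr1 did not pass the Wald test (-0.23), nor did Zbtb46 (-0.56), which was also lost with no filter and with the 4 muMT libraries alone. List medians shifted by at most 0.58, for mast cell markers without anti-CTLA-4 replicate 1 (-1.37 from -1.95), and scarce B cell markers went from 0.50 to 0.00 without isotype replicate 1. The median of neutrophil markers changed direction, from -0.13 to 0.17 without isotype replicate 1 and 0.16 without anti-CTLA-4 replicate 1, and was 0.00 without isotype replicate 2. No other list median of at least 0.1 in size changed direction under these alternatives. The cause was not tested. Genes with few reads have wide errors, so small changes of scarce genes can be missed at these depths.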

Other observations

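Further lists are given by their counts, beside 22.1% higher and 20.4% lower among all tested genes. Fatty acid oxidation genes were higher in 11 and lower in 3 of 20, including the electron carriers Etfa (0.52) and Etfb (0.60), log2 fold changes here and below. Among fatty acid synthesis genes the desaturase Scd1 fell by 1.11 and Acly, which makes acetyl-CoA from citrate, rose by 0.32. Iron and haem genes were higher in 12 and lower in 3 of 20, with Hmox1, haem oxygenase, at 367 and 399 CPM with isotype antibody and 562 and 563 CPM with anti-CTLA-4 (0.55 ± 0.04). Purine signalling and nucleoside salvage genes were higher in 11 and lower in 3 of 21, led by Upp1, uridine phosphorylase (1.80), and Adora2a, an adenosine receptor (1.16). Prostaglandin and leukotriene genes split 9 higher to 7 lower of 20: Tbxas1, thromboxane synthase, stood at 125 and 127 CPM with isotype antibody and 212 and 207 CPM with anti-CTLA-4 (0.73 ± 0.05), and Hpgds, prostaglandin D synthase, fell by 0.66. The 8 NADPH oxidase genes held 4 higher and none lower, at most 0.34 (Hvcn1, a proton channel). Inflammasome genes were higher in 7 and lower in 3 of 19, with Pycard, the adaptor ASC, rising by 0.64. Inhibitory receptors were higher in 10 and lower in 4 of 23, with Cd200r1, the receptor for CD200, at 0.79 and Cd72 at -0.70.

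Amino acid transporters were higher in 7 and lower in 5 of 23, and ATF4 targets in 8 and 4 of 20. Genes of p53 and cell death were higher in 13 and lower in 6 of 28, among them Ccng1 (0.64) and Mdm2 (0.48), and Trp53inp1 fell by 0.80. Lysosomal membrane proteins were higher in 8 and lower in 5 of 33, with Mcoln2, an endolysosomal cation channel, at 8.43 and 9.03 CPM with isotype antibody and 27.04 and 26.8 CPM with anti-CTLA-4 (1.62 ± 0.10). Small nucleolar and Cajal body RNAs were higher in 4 and lower in 6 of 77, their host genes in 2 and 4 of 14, and genes named Zfp in 24 and 56 of 331. The small RNAs (5.19% higher and 7.79% lower) and the Zfp genes (7.25% and 16.9%) lay below the shares of all tested genes. Lysosomal membrane proteins (24.2% and 15.2%) lay near or below them. Astrocyte markers were higher in 2 and lower in 4 of 13, neuronal markers lower in 2 of 7, choroid plexus and ependymal markers lower in 3 of 6, B and plasma cell markers higher in 1 and lower in 2 of 9, and neither of 2 erythroid markers was called.

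Some scarce genes had no read in a muMT group, and are named after their values were seen. Prl, the pituitary hormone prolactin, had 0 reads with isotype antibody and 135 with anti-CTLA-4, at least 43.8-fold higher with the isotype group set at 3 reads. Gh, growth hormone of the same gland, had 1 and 99 reads. In WT the order was the opposite, Gh standing at 12.97 and 13.1 CPM with isotype antibody and 0 reads with anti-CTLA-4, and Prl at 9.54 and 8.03 CPM and 0 reads. Col10a1, a collagen of growth plate cartilage, had 50 and 0 reads in muMT, at least 17.1-fold lower with anti-CTLA-4.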
